A study of Mus musculus with 8 samples.

Results

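Interferon signalling was followed through 9 genes, chosen by name: the ligand Ifng, its receptor chains Ifngr1 and Ifngr2, the transcription factors Stat2, Irf9, Irf1, Irf7 and Irf8, and the feedback inhibitor Socs1. They are 9 of the 32502 genes listed in the 8 Drop-seq expression tables, which hold counts of unique molecular identifiers (UMIs, each tagging 1 captured transcript) per cell barcode. Mouse glioma 261 (GL261) cells, a syngeneic glioblastoma line, were implanted (500 cells) into the brain of C57BL/6N mice, in the right striatum per the labels and in the frontal cortex per the study's methods. The hosts were Irg1/Acod1 +/+ (WT) or Irg1/Acod1 -/- (KO), lacking by label the enzyme that makes itaconate, and every host received the same GL261 line. Brains were taken at a tumour volume of 5–10 mm3 (early), 20–25 mm3 (intermediate) or 30–35 mm3 (late), and naive brains of both genotypes, each library pooling 2 mice, carried no tumour. Each genotype and stage is 1 library, so a difference between single libraries has no replicate check. Host sex differed between the genotypes at the early and the intermediate stage per the study's methods, so sex and genotype cannot be told apart there. WT early was female and WT intermediate and WT late were male, while KO early and KO late were male and KO intermediate female, so in WT sex and stage cannot be told apart either.

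Interferon gamma is the single type II interferon, made mainly by activated T cells and natural killer (NK) cells. It binds a receptor of Ifngr1 and Ifngr2 chains and acts on gamma-activated sites (GAS), inducing Irf1, which in turn drives antigen presentation genes and chemokines. Type I interferons signal instead through a complex that holds Stat2 and Irf9 and binds interferon-stimulated response elements (ISRE) and induces Irf7, the amplifier of type I interferon production. Irf8 is a lineage factor of microglia, macrophages and dendritic cells that interferon gamma also induces, and Socs1 blocks the Jak kinases that both receptor families use.

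The promoter stretches are shown because interferon response elements are the textbook route by which such genes answer interferon. RefSeq windows (GRCm38.p6, 250 bases before to 50 bases after a start site) were available for all 9 genes, with 12 windows in all. The ISRE core searched was GAAA, any 2 bases and GAAA again, and the GAS was TTC, any 3 bases and GAA, both on either strand and with overlapping matches kept. Of all 32851 windows in the table, 3.44% held the ISRE core and 8.3% the GAS. Among the 12 member windows, 2 held the ISRE core (Stat2 and Socs1) and 3 the GAS (Irf1, Irf8 and Ifng). The stretches below run 5′ to 3′ on the gene's strand, lie upstream of the start site, and give the matched letters in capitals. They lie at chr10:128270248-128270325 (Stat2, plus strand), chr11:53769884-53769972 (Irf1, plus), chr8:120736147-120736253 (Irf8, plus), chr10:118440796-118440845 (Ifng, plus) and chr16:10785564-10785659 (Socs1, minus).
Stat2: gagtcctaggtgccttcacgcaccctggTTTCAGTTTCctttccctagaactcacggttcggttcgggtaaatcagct
Irf1: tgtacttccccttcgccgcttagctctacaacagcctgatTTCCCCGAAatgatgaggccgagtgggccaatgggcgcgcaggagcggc
Irf8: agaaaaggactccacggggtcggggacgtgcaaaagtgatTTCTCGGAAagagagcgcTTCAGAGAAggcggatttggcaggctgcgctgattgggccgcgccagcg
Ifng: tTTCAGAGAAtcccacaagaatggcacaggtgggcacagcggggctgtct
Socs1: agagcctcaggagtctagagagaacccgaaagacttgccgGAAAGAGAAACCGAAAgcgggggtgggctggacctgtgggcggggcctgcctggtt
In Stat2 the ISRE core is read on the opposite strand, and in Socs1 the capitals are 2 overlapping cores. No match lay in the windows of Irf7, Irf9, Ifngr1 and Ifngr2. A match is a description of the letters and not a bound site. All 9 genes are protein coding. In GRCm38 the transcribed genes span chr10:128270559-128292849 (Stat2), chr11:53770014-53778374 (Irf1), chr7:141262706-141266481 (Irf7), chr8:120736358-120756694 (Irf8), chr14:55603571-55610030 (Irf9), chr10:118441046-118445892 (Ifng), chr10:19591949-19610229 (Ifngr1), chr16:91547072-91565623 (Ifngr2) and chr16:10782240-10785536 (Socs1).

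The kept data comprised 5698 cells, 454 to 1000 per library, with a median of 2608 to 5643 UMIs per cell. Cells were placed in classes by fixed markers after clustering without interferon genes, and levels are given as CPM, a gene's UMIs scaled to all UMIs of a class in a library, with exact Poisson 95% intervals that cover counting error only. Lymphocytes were 69 cells in WT early, 6 in WT intermediate and 4 in WT late, against 32, 41 and 35 in KO early, intermediate and late. As a share of non-tumour cells this was 15.7%, 8.22% and 3.03% in WT and 14.5%, 14.7% and 13.9% in KO. The WT intermediate library held only 73 non-tumour cells, 5 of them microglia-like, and values without it are given for the microglia-like calls and for Irf8 in lymphocytes. A pair of barcodes (2) occurred in more than 1 library. Acod1 itself had UMIs in microglia-like and macrophage-like cells of KO libraries (27 in early, 6 in intermediate and 32 in late, or 57.2, 11.7 and 60.8 CPM, against 153, 48.9 and 22.1 CPM in WT). The targeted allele has a cassette between exons 3 and 5 per the study's methods, and 3′ tag counts outside it do not check the genotype, for which the study used PCR. Where the UMIs lie was not tested. At the late stage the order was opposite to the labels, with 4 UMIs in WT late (6.02 to 56.6 CPM). KO and WT below therefore mean the libraries so labelled.

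Ifng, the ligand, was found mostly in lymphocytes of tumour-bearing brains. Of 264 Ifng UMIs in 73 cells of the whole series, 199 (75.4%) were in lymphocytes, 62 in cells of the tumour class and 1 each in a macrophage-like, a microglia-like and a naive ependymal-like sum. In lymphocytes Ifng stood at 317 CPM in WT early (252–393), 774 in KO early (614–963), 51.0 in KO intermediate (25.4–91.2) and 193 in KO late (126–282). WT intermediate and WT late lymphocytes had no Ifng UMI, which with 6 and 4 cells allows up to 71.6 and 252 CPM (3 counts). The 2 early libraries had the highest values, but the intervals of WT early and KO late overlapped. Zero in the 2 later WT libraries was not distinguishable from the KO intermediate level at this depth. The WT late interval, which reached 310 CPM, also overlapped that of WT early.

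The T cells held most of these transcripts. By the fixed T cell markers 173 lymphocytes were T cells and had 197 of the 199 UMIs, and 5 NK-like cells had 2. Because the constant genes of the T cell receptor beta chain also occur in NK cells, the split was repeated with Cd3 genes and Trac alone, a choice made after seeing the data. Then 151 T cells held 196 UMIs (310 CPM, 268–357) and 27 NK-like cells held 3 (29.2 CPM, 6.02–85.3). All 6 lymphocytes of WT intermediate and 3 of the 4 of WT late fell on the NK-like side. In the 2 libraries with at least 5 cells of both kinds, edgeR gave a log2 difference of 3.01 (SE 0.66, adjusted p = 0.088) for Ifng, and 1.25% of the 960 genes tested were called.

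Among T cells the CD4 cells were the stronger source at the early stage. Cd4 marks helper T cells, and Cd8a and Cd8b1 mark cytotoxic T cells. In WT early, 11 CD4 cells held 45 Ifng UMIs (1006 CPM, 734–1346) and 37 CD8 cells held 25 (180 CPM, 117–266). In KO early, 10 CD4 cells held 71 UMIs (1779 CPM, 1389–2244) and 7 CD8 cells held 6 (372 CPM, 137–810). The log2 ratio of CD4 over CD8 was 2.48 (95% interval 1.74 to 3.25) in WT early and 2.26 (1.06 to 3.75) in KO early. At the later KO stages the counts were too low for an order, with 4 against 3 UMIs in KO intermediate and 3 against 8 in KO late. Few cells decided the level: the richest 4 T cells held 16, 15, 13 and 13 UMIs. Ifng UMIs were seen in 4 of 11 CD4 cells (36.4%) in WT early and 8 of 10 (80.0%) in KO early. In CD8 cells the shares were 11 of 37 (29.7%) and 5 of 7 (71.4%). The order of CD4 over CD8 is therefore one of UMIs and much less of the share of cells with Ifng. The intervals treat UMIs of the same cell as independent. Another 50 T cells had no Cd4 or Cd8 UMI and held 15 Ifng UMIs, 13 of them in KO late.

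**Figure D1:**
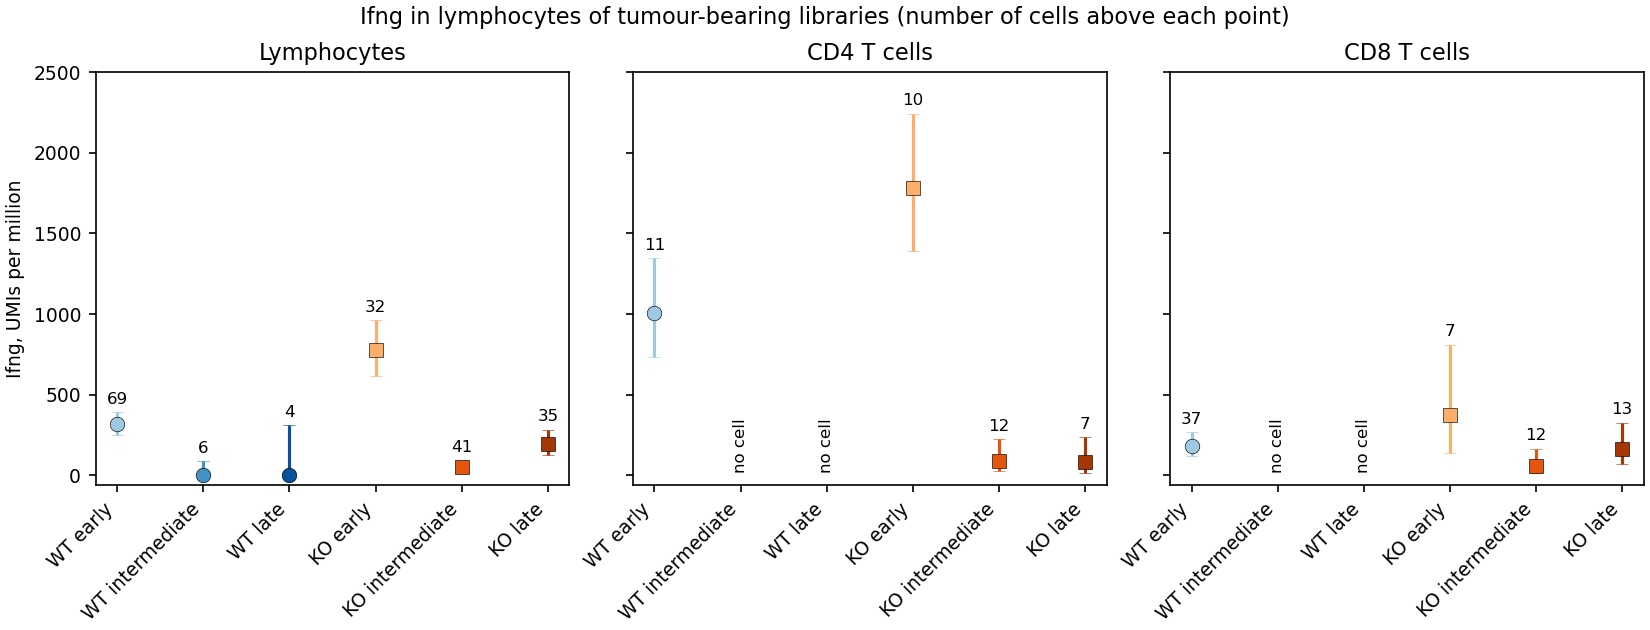
Ifng (y axis, CPM, linear) in all lymphocytes, CD4 T cells and CD8 T cells of the 6 tumour-bearing libraries (x axis), with exact Poisson 95% intervals and the number of cells above each point. The CD4 cells of WT early and KO early stand highest, at 1006 and 1779, and WT intermediate and WT late had no CD4 or CD8 T cell.

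Ifng also appeared in the tumour class, with 44 UMIs in 12 of 514 cells of KO early, 17 in 7 of 529 of KO late and 1 in WT early. Of the 20 tumour-class cells with Ifng, 11 (55.0%) also held UMIs of T cell markers, against 4.15% of all 3395 tumour-class cells, and those 11 cells held 53 of the 62 UMIs. The share was 4 of 12 (33.3%) in KO early and 6 of 7 (85.7%) in KO late. None was seen in 446 tumour-class cells without immune marker UMIs. Of these cells 31 were in KO early and 79 in KO late, where 3 counts would be 34.1 and 13.9 CPM. Both lie above the levels of the whole class, 12.1 and 4.27 CPM, so zero could not be told apart from them at this depth. The summed lymphocyte markers in the tumour class were 54.8 CPM in KO early and 234 in KO late against 2.37 to 28.2 in the other 4 libraries. The part of T cell RNA in the tumour-class value was not tested.

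In a fit with the library as a block of lymphocyte sums against all other named non-tumour cells of the same library (5 libraries), 6 of the 8 members other than Ifng were called by edgeR and 4 by DESeq2 (not Irf8, adjusted p = 0.105, nor Socs1, adjusted p = 0.0833), where 46.2% of the 7214 genes tested were called, 19.2% higher and 27.1% lower. The 6 calls include Ifngr2, which could enter the fit only through the other cells. Ifng entered the fit through its lymphocyte sums alone, so its fitted value is no support and is not given. Over these libraries Ifng had 199 UMIs in lymphocytes and 2 in the other cells, a ratio of 569 (counting interval 155 to 4729). It was higher in lymphocytes in 4 of 5 libraries.

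The receptor chains were split between cell types. Ifngr1, the ligand-binding chain, had 788 CPM in lymphocytes of WT early, 191 in WT intermediate, 822 in KO early, 950 in KO intermediate and 623 in KO late, where the other non-tumour cells had 40.5 to 163 CPM. It was higher in lymphocytes in all 5 libraries (log2 fold change 2.38, SE 0.21, adjusted p = 1.48e-09). A UMI of Ifngr1 was seen in 160 of 187 lymphocytes (85.6%, exact interval 79.7 to 90.3).
Ifngr2, the signalling chain that recruits Jak2, went the other way, with 0 to 22.2 CPM in lymphocytes and 70.9 to 112 in the other non-tumour cells. It was lower in 5 of 5 libraries, with a pooled ratio of 0.11 (counting interval 0.0473 to 0.219, from 8 and 415 UMIs). Ifngr2 could enter the fit only through the other cells, so its fitted value is no support and is not given. In all, 8 Ifngr2 UMIs were counted in 187 lymphocytes.
Macrophage-like cells had 127 to 177 CPM of Ifngr2 and microglia-like cells of tumour-bearing brains 112 to 222, ranges that overlap. Both lay above the endothelial range of 24.7 to 90.0, and this above the tumour cell range of 9.61 to 17.9. Tumour cells had 24.9 to 42.0 CPM of Ifngr1.

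Ifngr1 in microglia-like cells was high in naive brains and low in tumour-bearing ones. It stood at 833 CPM in WT naive and 667 in KO naive. In tumour-bearing brains it was 247 in WT early, 0 in WT intermediate (5 cells), 292 in WT late, 197 in KO early, 215 in KO intermediate and 113 in KO late. Every tumour-bearing library was below both naive libraries (log2 fold change -1.84, SE 0.38, adjusted p = 0.00324). Without WT intermediate the value was -1.68 (adjusted p = 0.001). Ifngr2 in the same cells was 182 and 181 CPM in naive and 112 to 222 in tumour-bearing libraries (log2 fold change -0.10, SE 0.34, adjusted p = 0.869).
In the tumour, microglia-like cells are called TAM I and macrophage-like cells TAM II. Between the 2 classes Ifngr1 differed by -0.22 (SE 0.25, adjusted p = 0.555) and Ifngr2 by -0.25 (SE 0.22, adjusted p = 0.423) on the log2 scale.

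**Figure D2:**
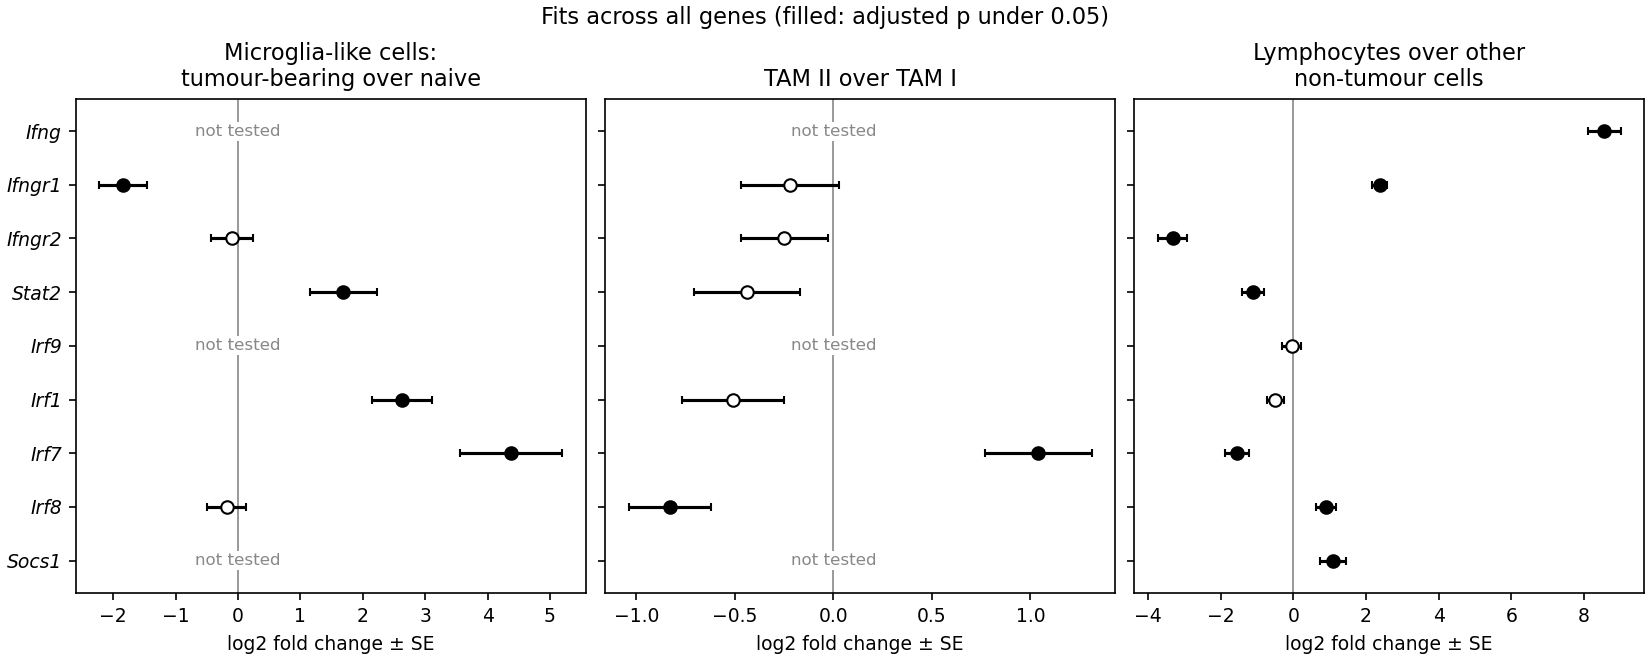
Fitted log2 fold changes (x axis) with standard errors for the members (y axis) in 3 comparisons, filled where the adjusted p is under 0.05. Irf7 lies to the right in TAM II (1.04), and Ifngr1 in lymphocytes (2.38). Irf7 in microglia-like cells and Ifng and Ifngr2 in lymphocytes could enter these fits through 1 side only, so their drawn values are no support.

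Microglia-like cells of tumour-bearing brains carried more Irf7, Irf1 and Stat2 than naive ones. Of the 9 members 6 passed the filter and 4 were called, 3 higher and 1 lower, where edgeR called 16.5% of 3230 genes (9.54% higher and 6.93% lower). DESeq2 called 3. Irf7 had 0 UMIs in WT naive and 2 in KO naive, and 43.5 CPM in WT early, 173 in WT intermediate, 169 in WT late, 84.6 in KO early, 101 in KO intermediate and 101 in KO late. The pooled ratio was 21.5 (counting interval 5.68 to 181, from 59 and 2 UMIs). Irf7 could enter this fit only through its tumour-bearing sums, so its call is no support and its fitted value is not given.
Irf1 was 34.5 and 41.1 CPM in naive cells. It was 265 in WT early, 202 in WT late, 282, 229 and 252 in the KO stages, and 0 in WT intermediate with its 5 cells (log2 fold change 2.63, SE 0.48, adjusted p = 0.00152, higher in 5 of 6 libraries). Without WT intermediate the values were 2.76 for Irf1 (adjusted p = 8.88e-05) and 1.77 for Stat2 (adjusted p = 0.03).
Stat2 was 44.3 and 20.5 CPM in naive cells and 56.4 to 155 in tumour-bearing ones (log2 fold change 1.69, SE 0.54, adjusted p = 0.0413, higher in 6 of 6). This call was lost under 8 of 17 alternative settings, with log2 fold changes from 0.74 to 2.53.
Irf8, the lineage factor, was 463 and 479 CPM in naive and 259 to 493 in tumour-bearing libraries (log2 fold change -0.18, SE 0.31, adjusted p = 0.747). Irf9, Socs1 and Ifng had too few UMIs in this class to be tested.
The naive group is 2 libraries. Without WT naive none of the 4 calls remained, and without KO naive those of Irf1, Stat2 and Ifngr1 were lost. Macrophage markers summed to 530 and 833 CPM in naive and 2068 to 5788 in tumour-bearing microglia-like cells. Their part in these differences was not tested. With library totals in place of TMM scaling, 46.8% and not 57.9% of all calls were higher, and the median of all genes moved from 0.01 to -0.12.

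The wider lists moved in the same comparison. Of 21 tested genes of the interferon-gamma response list, 16 were higher and none lower, with a median log2 fold change of 4.08 (3.79 with genes at 0 in a group set to their bound, and 0.01 over all genes). Examples are the T cell chemokines Cxcl10 (2.02 CPM pooled in naive and 786 in tumour-bearing) and Cxcl9 (0 and 505, at least 83.4-fold higher, higher in 4 of 6 libraries). Another is the guanylate-binding protein Gbp4 (0 and 169, at least 27.9-fold higher, higher in 5 of 6 libraries). Genes at or near 0 in naive cells, Irf7 included, could enter this fit only through their tumour-bearing sums and so only come out higher. Of 14 tested genes of the type I response list, 12 were higher and none lower (median 3.94). Isg15, an interferon-induced ubiquitin-like protein, was at 4.04 CPM in naive and 147 in tumour-bearing cells, and Zbp1, a nucleic acid sensor, at 4.04 and 153. The other 3 named genes of these lists were Gbp6 (0 and 61.7 CPM), Ifit2 (6.06 and 178) and Ifi27l2a (44.4 and 949, adjusted p = 3.56e-05), all higher. Fitted values of genes at or near 0 in naive cells are no support, and the counts and medians of both lists include them.

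In endothelial cells the same comparison called 1 of 6 tested members, where 7.08% of 3165 genes were called, 5.69% higher and 1.39% lower. Irf7 was 30.9 and 43.7 CPM in naive libraries and 61.7 to 250 in tumour-bearing ones (log2 fold change 1.98, SE 0.43, adjusted p = 0.0222, higher in 6 of 6). Socs1 had 1 UMI in each naive library and 0 to 186 CPM in tumour-bearing ones, and edgeR did not call it. The pooled ratio was 25.0 (counting interval 6.54 to 212, from 47 and 2 UMIs). Socs1 could enter this fit only through its tumour-bearing sums, so its fitted value is no support and is not given. DESeq2 called Irf7 and also Socs1, the latter with the same limit. Of all calls 80.4% were higher, and 67.4% with library totals. The endothelial sums of tumour-bearing brains carried other cells' markers: mural and fibroblast markers summed to 3728 to 14893 CPM against 2064 and 3259 in naive, and tumour markers to 332 to 9404 against 24.7 and 27.3. Their part in the Irf7 value was not tested, and Irf7 was not called with another clustering seed (adjusted p = 0.183) or with doublets removed (adjusted p = 0.196).
In oligodendrocytes only Stat2 was tested (18.4 and 67.7 CPM pooled, log2 fold change 2.00, SE 0.64, adjusted p = 0.164, in a fit that called 2.25% of genes, 1.58% higher and 0.676% lower). Irf1 and Irf7 had no UMI in naive oligodendrocytes and 37 and 30 in tumour-bearing ones, at least 8.01-fold and 6.50-fold higher. In the same cells 8 of 14 tested interferon-gamma response genes and 7 of 11 type I response genes were higher and none lower. The GTPases Iigp1 (0 and 486 CPM) and Igtp (0 and 343 CPM) were at least 79.3-fold and 55.9-fold higher. Of the tested genes, 7 of the 14 and 3 of the 11 had no UMI in a group. Genes at 0 in naive cells, Iigp1 and Igtp included, could enter this fit only through their tumour-bearing sums and so only come out higher. No member was tested in astrocytes, where 1.36% of 663 genes were called.

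Between the tumour-associated myeloid classes Irf7 was higher in TAM II and Irf8 in TAM I. Of 6 members tested 2 were called, where 28.1% of 3452 genes were called, 14.3% higher and 13.8% lower. Irf7 in TAM II was 195, 306 and 130 CPM in WT early, intermediate and late and 245, 179 and 177 in KO, against 43.5, 173 and 169 and 84.6, 101 and 101 in TAM I (log2 fold change 1.04, SE 0.27, adjusted p = 0.00744, higher in 5 of 6 libraries). Without WT early the call was lost (0.74, adjusted p = 0.0657). Irf8 was 138 to 389 CPM in TAM II and 259 to 493 in TAM I (log2 fold change -0.83, SE 0.21, adjusted p = 0.00539, lower in 6 of 6). It was not called with another clustering seed (-0.43, adjusted p = 0.104) or with cells of at least 500 genes (-0.44, adjusted p = 0.0602). Dendritic-like cells, 25 in all, had the highest Irf8 of any class, with 1497 CPM in KO early and 1440 in KO intermediate, the libraries with at least 5 such cells.

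In lymphocytes against the other non-tumour cells, Irf7 (log2 fold change -1.56, SE 0.33, adjusted p = 0.00037) and Stat2 (-1.12, SE 0.31, adjusted p = 0.00493) were lower. Socs1 was higher (1.10, SE 0.36, adjusted p = 0.0137), with 23.9 to 92.7 CPM in lymphocytes and 6.75 to 59.6 in the others. Without KO intermediate neither Stat2 (-0.82, adjusted p = 0.0635) nor Socs1 (0.69, adjusted p = 0.184) was called. Irf8 was higher as well (0.89, SE 0.28, adjusted p = 0.00981). Irf8 in WT intermediate lymphocytes was 1050 CPM (44 UMIs in 6 cells) and 270 to 452 in the other 4 libraries, and without WT intermediate the log2 fold change was 0.49 (adjusted p = 0.0217). With doublets removed Irf8 was not called (0.51, adjusted p = 0.0548). Those 6 cells had no Cd3 or Trac UMI, and in the Cd3 and Trac split Irf8 was lower in T cells than in NK-like cells (log2 fold change -2.87, SE 0.37, adjusted p = 0.014, 2 libraries). Irf1 (-0.50, adjusted p = 0.0891) and Irf9 (-0.05, adjusted p = 0.903) did not pass.

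In tumour cells Irf1, Irf8, Stat2 and Socs1 varied more between libraries than Irf7, Irf9 and the receptor chains, and Ifng in this class is given above. Irf1 was 245 CPM in WT early, 94.4 in WT intermediate and 54.3 in WT late, and 267, 215 and 270 in KO early, intermediate and late. Irf8 was 69.9, 6.87 and 6.96 CPM in the WT stages and 118, 87.1 and 107 in KO. Both were lowest in WT intermediate and WT late. Stat2 was 103, 61.4 and 29.5 CPM in WT and 106, 91.9 and 119 in KO. Socs1 was 26.5, 14.0 and 10.7 CPM in WT and 53.7, 20.5 and 44.0 in KO. For Socs1 the KO intermediate level lay below WT early.
By contrast Irf7 stayed within 33.4 to 47.1 CPM, Irf9 within 47.7 to 75.2, Ifngr1 within 24.9 to 42.0 and Ifngr2 within 9.61 to 17.9.
These levels rest on 41 to 430 UMIs of Irf8 and 320 to 1072 UMIs of Irf1 per library. The WT late over WT early log2 ratio was -3.33 (binomial interval -3.85 to -2.84) for Irf8, -2.17 (-2.37 to -1.98) for Irf1, -1.80 (-2.08 to -1.53) for Stat2 and -1.31 (-1.81 to -0.82) for Socs1. In KO the same ratio was -0.14 (-0.33 to 0.06) for Irf8, 0.01 (-0.11 to 0.14) for Irf1, 0.17 (-0.02 to 0.37) for Stat2 and -0.29 (-0.59 to 0.01) for Socs1. Each ratio compares 2 libraries and not the conditions, and the difference between the genotypes in this ratio was not tested.

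Irf8 is a haematopoietic factor, so its tumour-class level was also taken in tumour cells without any UMI of lymphocyte, microglia, macrophage or dendritic markers, a choice made after seeing the data. It was then 60.5 CPM (22.2–132) in WT early, 1.59 (0.0401–8.83) in WT intermediate and 0 in WT late, and 68.2, 86.9 and 92.9 in KO early, intermediate and late. Irf1 in these cells was 242, 117 and 95.2 CPM in WT and 455, 190 and 344 in KO. In these cells too the 2 lowest Irf8 values were those of WT intermediate and WT late. In the whole tumour class the macrophage markers summed to 297 to 583 CPM in WT and 346 to 1035 in KO.

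**Figure D3:**
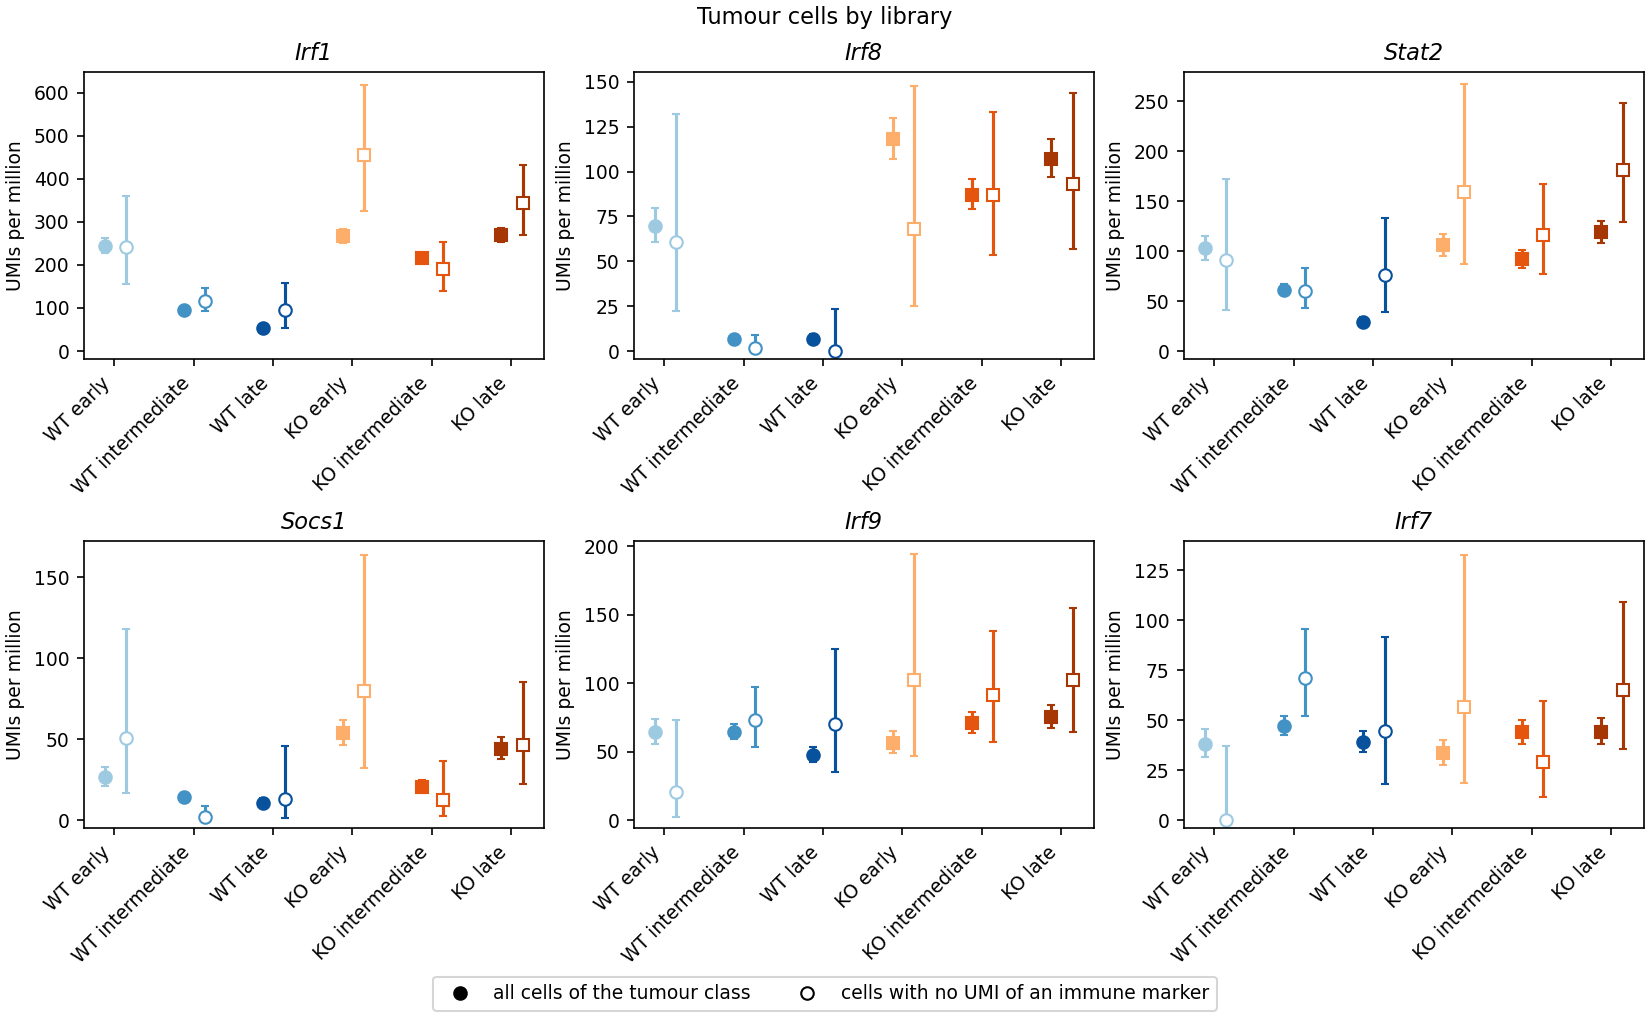
Level of 6 members (y axis, CPM, linear) in tumour cells of the 6 tumour-bearing libraries (x axis), filled for all cells of the class and open for cells with no UMI of an immune marker, with exact Poisson 95% intervals. Irf8 lies at 6.87 and 6.96 in WT intermediate and WT late and between 69.9 and 118 in the other libraries, while Irf7 lies between 33.4 and 47.1 in all of them.

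The difference between KO and WT tumour cells was fitted over the 3 stages as pairs. None of the 9 members passed with edgeR, 5 had an unadjusted p under 0.05, and DESeq2 called 1 (Irf1, 1.25, adjusted p = 0.0223). Over all genes 0.0139% of 14396 were called. The fitted log2 differences of KO over WT were 2.78 for Irf8 (SE 0.61, adjusted p = 0.393), 1.25 for Irf1 (SE 0.37, adjusted p = 0.558), 1.24 for Socs1 (SE 0.30, adjusted p = 0.408) and 0.90 for Stat2 (SE 0.34, adjusted p = 0.682), each positive at 3 of 3 stages. The stages were uneven. For Irf8 the log2 ratio of KO over WT was 0.75 (0.51 to 1.00) at the early stage, 3.66 (3.26 to 4.10) at the intermediate and 3.94 (3.48 to 4.44) at the late stage. For Irf1 it was 0.13 (-0.01 to 0.27), 1.19 (1.05 to 1.33) and 2.31 (2.13 to 2.50). Without WT early or without KO early Irf8 was called (3.83, adjusted p = 0.00697, and 3.82, adjusted p = 0.00373). With stage as a block, either omission leaves the other early library without its pair. Both fits therefore rest on the same intermediate and late pairs, those with the larger ratios, and are not independent of each other. Without the filter on low counts the 4 genes and Ifng were called.
In TAM I, TAM II and lymphocytes edgeR called no member between genotypes (0 of 6, 0 of 8 and 0 of 8 tested, with 0%, 0.0162% and 0.268% of all genes called), no member had an unadjusted p under 0.05, and DESeq2 called none.
Between late and early libraries edgeR called no member either in tumour cells, TAM I or TAM II, where 0%, 0.0522% and 0% of all genes were called. Members with an unadjusted p under 0.05 numbered 2, 0 and 1, and DESeq2 called none.

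Irf1 in TAM II was 207, 58.9 and 32.6 CPM in WT early, intermediate and late, from 117, 5 and 3 UMIs, and 177, 166 and 261 in KO. The log2 ratio of KO over WT was -0.22 (-0.67 to 0.21) at the early, 1.49 (0.19 to 3.17) at the intermediate and 3.0 (1.42 to 5.30) at the late stage. The fit over all stages gave 0.98 (SE 0.49, adjusted p = 1), and without WT early 2.33 (adjusted p = 0.00399) and without KO early 2.32 (adjusted p = 0.00328). The fits without an early library again rest on the same intermediate and late pairs, in which WT held 5 and 3 Irf1 UMIs. Socs1 in TAM II was 38.9 CPM in WT early with no UMI in WT intermediate and WT late, and 57.4, 16.6 and 22.3 in KO. Irf8 in TAM II was 237, 224 and 185 CPM in WT and 284, 138 and 389 in KO, and the ranges of the genotypes overlap. In TAM I the late libraries held 18 Irf1 UMIs in WT and 20 in KO, and the log2 ratio of KO over WT was 0.32 (-0.68 to 1.32).

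The response genes were summed per class and library as a readout of the pathway that is no member. For the 28 interferon-gamma response genes, which include 5 genes of MHC class II presentation, tumour cells summed to 11858 CPM in WT early, 3362 in WT intermediate and 1532 in WT late, and to 13069, 11256 and 14073 in KO early, intermediate and late. Macrophage-like cells summed to 39279, 4249 and 5973 in WT and 40273, 44074 and 42021 in KO. Microglia-like cells summed to 30555, 1324 and 2227 in WT and 21913, 27989 and 19837 in KO, with 2143 and 739 in the naive libraries. In oligodendrocytes and endothelial cells WT intermediate and WT late were again the lowest, with 4252, 198 and 230 and 7590, 1326 and 1020 CPM in WT against 5410, 3460 and 4578 and 10961, 5699 and 16115 in KO. WT naive and KO naive had 64.1 and 71.5 CPM in oligodendrocytes. In endothelial cells they had 1987 and 1969 CPM, above WT intermediate and WT late. In all 5 classes WT intermediate and WT late were below the other 4 tumour-bearing libraries. They were also the 2 libraries in which lymphocytes had no Ifng UMI and numbered 6 and 4 cells. The relation between these values was not tested.
The late KO over WT ratio of the sums was 9.18-fold in tumour cells and 7.04-fold in macrophage-like cells, and 6.71-fold and 5.88-fold without the class II genes, a choice made after seeing the data. At the early stage the ratio of the full sums was 1.10-fold in tumour cells and 1.03-fold in macrophage-like cells. The intermediate ratio depended more on class II genes. It fell from 3.35-fold to 2.40-fold in tumour cells without them. In macrophage-like cells it fell from 10.4-fold to 2.24-fold, and in microglia-like cells from 21.1-fold to 4.94-fold.

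The 23 type I response genes did not follow this order in tumour, macrophage-like and microglia-like cells. Tumour cells summed to 3771, 4629 and 3180 CPM in WT and 5262, 4734 and 4650 in KO, so that WT late was the lowest there. Macrophage-like cells summed to 6193, 6074 and 5669 in WT and 7783, 5617 and 6548 in KO. In microglia-like cells the WT values were 2555, 4317 and 5579 against 6088, 4797 and 5624 in KO and 478 and 513 in naive brains. In oligodendrocytes and endothelial cells the 2 later WT libraries were again the lowest of the tumour-bearing ones, at 771 and 681 CPM against 1860 to 5342 in oligodendrocytes and at 5519 and 5060 against 5845 to 9451 in endothelial cells. The late KO over WT ratio was 1.46-fold in tumour cells, 1.16-fold in macrophage-like cells and 5.44-fold in oligodendrocytes.

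**Figure D4:**
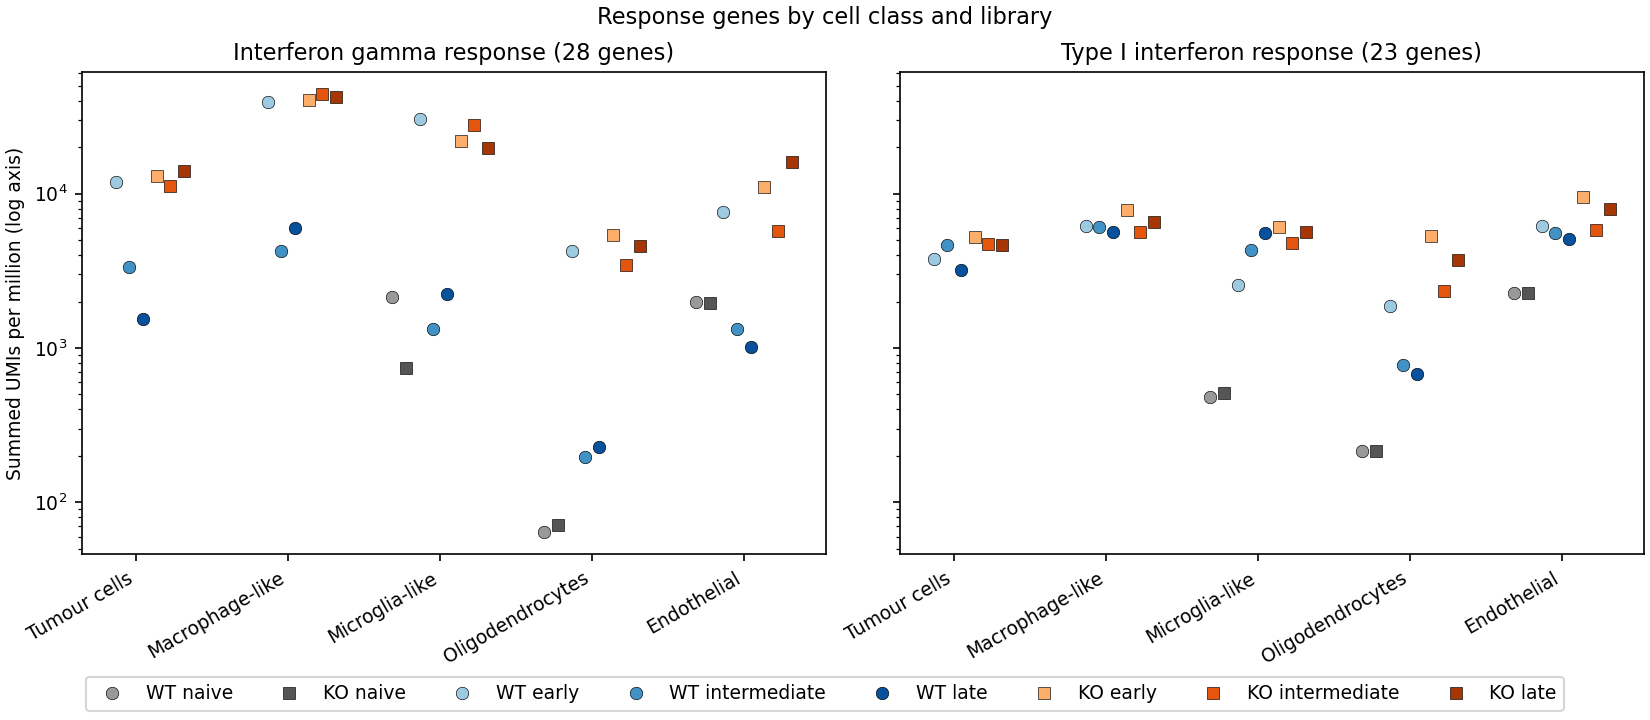
Summed level of 28 interferon-gamma response genes (left) and 23 type I response genes (right) in 5 cell classes (x axis), in CPM on a log axis, with 1 point per library. On the left WT intermediate and WT late lie below the other 4 tumour-bearing libraries in every class (4249 and 5973 against 39279 to 44074 in macrophage-like cells). On the right they lie among them in macrophage-like and microglia-like cells. In tumour cells on the right WT intermediate lies among them and WT late is the lowest (3180).

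The cytokines and factors that act upstream of Ifng were split by cell as well. Of 8 tested genes of the inducer list, 5 were higher and 2 lower in lymphocytes than in other non-tumour cells, where 19.2% of all genes tested were higher and 27.1% lower. Il18r1, a chain of the interleukin-18 receptor, had 100 UMIs in lymphocytes and 6 in the others (132 and 1.39 CPM, higher in 4 of 5 libraries). Tbx21, the T-bet factor that drives Ifng transcription, had 78 and 7 UMIs, and its relative Eomes 50 and 7 (both higher in 5 of 5). Il12b, a subunit of interleukin-12, had no UMI in lymphocytes and 257 in the other cells (at least 15-fold lower, lower in 4 of 5). It is also among the markers by which the dendritic-like class was named. Each of these genes was at or near 0 on its lower side and could enter this fit only through the other side. Their fitted values are therefore no support and are not given, and the counts of higher and lower genes include them.

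Across 54 sums of class and library and 4274 genes, Ifng was most like Trbc1 and Gzma (Pearson r of log2 level 0.94 for both), a T cell receptor gene and a granzyme. Irf1 was most like Tap1, the antigen peptide transporter (0.87), and Irf7 like Isg15 (0.86). Irf9 was most like Ifi35 (0.69), Irf8 like the phosphatase Ptpn18 (0.89), Ifngr1 like Jak1 (0.81), Ifngr2 like Gngt2 (0.86) and Socs1 like Gbp4 (0.74). The sums share libraries and differ in cell type and depth, so these values describe the sums only.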

How the data were processed

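Cells of naive and GL261-bearing brain tissue were profiled by Drop-seq, and the authors deposited UMI counts per gene and barcode, with no normalization. Per the submitters' processing notes, reads were demultiplexed with bcl2fastq 2.0 and aligned with STAR to GRCm38 (mm10). From these deposited counts the 1000 barcodes with most UMIs per library, genes seen in at least 30 cells and cells with at least 1000 genes were kept. Cells were clustered without 83 interferon genes (50 principal components, Rtsne 0.17, perplexity 50, HDBSCAN with at least 19 cells), and clusters were named from fixed markers. Table totals ran from 2885345 to 9950713 UMIs.

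UMIs were summed per library and class (at least 5 cells) and tested with the quasi-likelihood test of edgeR 4.0.16 (TMM, filterByExpr, R 4.3.3), with Benjamini-Hochberg adjustment over all genes tested and a threshold of 0.05. DESeq2 1.42.0 was an alternative. Fits had genotype as a covariate (tumour-bearing against naive, late against early), library as a block (between classes) or stage as a block (genotypes). Since each group is 1 library, genotypes and stages serve as each other's replicates. Ratios of single libraries have exact binomial 95% intervals. The fits were tested on simulated data, with 200 genes changed by 2 on the log2 scale. For KO against WT these were recovered in 88.5% of cases in tumour cells, 77.5% in TAM I, 68% in TAM II and 6% in lymphocytes. For late against early it was 77% in tumour cells, 53.5% in TAM I and 46.5% in TAM II. These shares hold with 200 changed genes present, where the adjusted threshold is easier to pass, and do not give the power for the members. Doublets stay in the main analysis. In an alternative those marked by Scrublet were removed, or, in 5 libraries where it marked 1 to 4 cells, the 5% of cells with the highest score. The planned fit of T against NK-like cells could not be made. The members, lists and tests were chosen with earlier results of these data known. Beside the members, up to 4 called genes per list and comparison were named, by largest fold change. Results that need 1 gene outside the members are not reported here.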

Additional observations from a re-analysis of the deposited data

Results flagged for a closer look

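Of 43 groups of 4 to 10 libraries tested, 3 held a member value apart from the rest by Dixon's criterion, which chance meets in about 1 in 20 groups, so the number is near what chance gives. Irf1 in microglia-like cells of WT intermediate was 0 CPM, where the other 5 tumour-bearing libraries had 202 to 282, and that sum holds 5 cells. Irf8 in lymphocytes of WT intermediate was 1050 CPM, where the other 4 libraries had 270 to 452. Ifng in the tumour class of KO early was 12.1 CPM, where the other 5 libraries had 0 to 4.27.

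The late over early log2 ratio had opposite signs in the genotypes for Irf1 in TAM II (-2.67 in WT and 0.56 in KO) and for Irf9 in tumour cells (-0.43 in WT and 0.41 in KO). Each is 1 library against 1 library, and the difference between the genotypes was not tested.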

How the results depend on the processing

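Of 14 member calls, 4 held under every alternative run (Ifngr1, Ifngr2, Irf7 and Ifng in lymphocytes), and none reversed. Of these, Ifng entered the fit only through its lymphocyte sums and Ifngr2 only through the other cells, so neither call is support. Members called in endothelial cells numbered 1, and 2 with DESeq2, 2 without the filter on low counts, 0 with another tSNE seed and 0 with doublets removed. In oligodendrocytes the count was 0, and 4 without the filter. Between TAM II and TAM I it was 2, and 1 without the filter, with another seed or with at least 500 genes per cell. Between KO and WT tumour cells it was 0, and 1 with DESeq2 and 5 without the filter, and between late and early tumour cells 0, and 2 without the filter. The causes were not tested. Leaving out each library in turn gave 0 to 4 member calls in microglia-like cells, 0 to 2 in endothelial cells, 1 to 2 between TAM classes, 6 to 7 in lymphocytes, and 0 to 1 for KO against WT and late against early in TAM II and tumour cells.

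Counts over all genes ranged over the alternatives from 27 to 687 in microglia-like cells, 0 to 564 in endothelial cells, 3 to 213 in oligodendrocytes, 4 to 53 in astrocytes, 583 to 1324 between TAM classes, 2153 to 4985 in lymphocytes, and 0 to 488 (KO against WT) and 0 to 377 (late against early) in tumour cells. In the other comparisons of genotype and stage they ranged from 0 to 109. Of 175 ratios of single libraries, 13 changed their side of the interval with TMM scaling and none reversed. Of 207 shares of cells, 93 moved when cells were thinned to 1500 UMIs. For KO against WT lymphocytes 5 alternatives were not run, because they leave too few libraries. Low lymphocyte numbers in WT intermediate and WT late limit what can be said of Ifng there. Replicate numbers pair no samples, since each group holds 1 library.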
